A study of Sus scrofa with 24 samples.

Results

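Liver was set against Spleen, Jejunum and Peyer in 6 of 24 pig tissue samples, and each gene was compared with the highest and with the lowest of the 3 other tissue means. The samples were whole pieces of liver, of spleen, of jejunum without Peyer's patches (Jejunum) and of jejunum carrying them (Peyer), with 1 piece of each tissue from each of 6 crossbred pigs. The pigs were weaned at 28 days, fed a standard diet without restriction and killed at 10 weeks, and no treatment separates any of the groups. Animals carry the numbers 68, 69, 70, 71, 73 and 75. Of 10833 named genes tested, 616 had a Liver mean at least 2 log2 units above that of every other tissue and 289 had one at least 2 log2 units below. A level is the log2 signal of a gene's probe minus the 75th percentile of its array, so 0 is a bright probe, and levels of different genes are not comparable. Levels are given with the SD over 6 arrays of a tissue or as lowest, highest and median array, and differences with the SE of the limma fit.

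The liver parenchyma consists mainly of hepatocytes, which secrete most plasma proteins, make bile acids from cholesterol, convert ammonia to urea, handle glucose and lipids after absorption and oxidise drugs. Sinusoidal endothelial cells, Kupffer cells (the resident macrophages), stellate cells and bile duct cells make up the rest. In whole tissue, fewer cells of a type and less RNA per cell cannot be told apart. The first genes described are 5 hepatocyte products, chosen with earlier results of these data known. Hemopexin, HPX, which binds free heme, had levels of 9.28 to 9.75 (median 9.55) in Liver, against -2.91 to 0.52 (median -1.52) in Spleen, -2.84 to -2.20 (median -2.64) in Jejunum and -3.80 to -2.91 (median -3.18) in Peyer. The antithrombin gene SERPINC1 averaged 9.26 ± 0.10 in Liver, against -1.41 ± 0.95 in Spleen, -2.57 ± 0.28 in Jejunum and -2.47 ± 0.22 in Peyer. LECT2, a secreted leukocyte attractant, A1BG, a plasma glycoprotein, and prothrombin, F2, were 11.63, 10.64 and 10.76 above the next tissue. All 5 were above background on all 24 arrays, and every Liver array lay above every other array for each, as for 13.5% of all genes tested.

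Plasma protein genes led the genes that were higher in Liver, and contractile, lymphocyte and cell division genes were among those that were lower. The 616 genes are 5.69% of the genes tested, all had an adjusted p under 0.05 against each of the 3 tissues, and their median difference to the next tissue was 3.48, with 254 at 4 or more, 149 at 6 or more and 98 at 8 or more. The 289 lower genes are 2.67%, with a median of -2.59 and 26 at 4 or more in size. These differences also chose the genes, so the counts are a description. Jejunum was the next tissue for 304 of the 616 genes (49.4%), Spleen for 242 (39.3%) and Peyer for 70 (11.4%). Every Liver array lay above all 18 others for 603 of the 616, against 13.5% of all genes tested, and below all 18 for 255 of the 289, against 11% of all genes tested. The low genes depended on the background correction, with 100 below every other tissue after normexp correction, and the authors' deposited values gave 270 genes above and 18 below. Those deposited values hold little of the difference between the mean of Liver and Spleen and the mean of Jejunum and Peyer. Its SD over probes is 0.114 there, against 1.5 in the scanner values. In the rest of the text a difference is Liver minus the highest other tissue for genes above, and Liver minus the lowest other tissue for genes below, unless a tissue is named. Against single tissues, at a difference of 1, 38.8% of genes were called in either direction against Spleen, 33.3% against Jejunum and 40.2% against Peyer. A gene is called above or below every other tissue at a difference of 2 or more in size and an adjusted p under 0.05 in each comparison.

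Liver and Spleen shared slides 1, 2 and 3, and Jejunum and Peyer shared slides 4, 5 and 6, so for Liver against Jejunum or Peyer the tissue and the slide set cannot be told apart. Slide 6, with the Jejunum and Peyer arrays of animals 73 and 75, was scanned on another date than the other slides. The part of the scan date in the levels was not tested. Within slides, all 616 genes were at least 1 higher in Liver than in Spleen on each of slides 1, 2 and 3, with medians of 4.80, 4.66 and 4.67, and the 289 lower genes had medians of -3.09, -3.0 and -3.46. The same arrays chose these genes, so the within-slide values are a description and no test of the slides. The 6 Liver arrays correlated at a mean r of 0.98 over the probes kept for testing, and their 75th percentile signals lay between 423.8 and 525.7, against 275.4 to 1098 in Spleen, 680.9 to 1001 in Jejunum and 876.7 to 2262 in Peyer. Of the 616 genes, 26 were above background on no array outside Liver. On an array where a probe was not above background, the dimmest signal that the scanner software called above background on that array, or the probe's own if brighter, was put in its place, and a difference that this made smaller is written as a bound, with "or more", "or lower" or as at least a number of folds. With these bounds, a comparison chosen after the data were seen, 604 of the 616 genes stayed at least 2 above, with a median of 3.38 and 237, 142 and 90 at 4, 6 and 8 or more. Of the 289 lower genes 217 stayed at least 2 below, with a median of -2.31 and 17 at 4 or more in size. List medians are of measured differences, and with the bounds those of the coagulation, lipoprotein, bile acid and membrane carrier lists were 10.73, 4.27, 3.74 and 1.56, while the medians of the other lists of liver functions stayed as given.

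All 20 tested coagulation and fibrinolysis genes were above every other tissue, against 5.69% of all genes, with a median difference of 10.87. The probe of the fibrinogen gamma chain, FGG, whose protein forms the clot, and that of HPX are shown because they stand for the secreted plasma proteins, which hold the largest differences. All sequences here are 60-base probes of the array, from the scanner files, written 5′ to 3′.
FGG: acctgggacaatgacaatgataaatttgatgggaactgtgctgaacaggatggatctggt
HPX: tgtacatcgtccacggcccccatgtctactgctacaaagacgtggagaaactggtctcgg
The FGG probe read 8.21 to 9.05 (median 8.33) in Liver, against -7.86 to -1.47 (median -4.92) in Spleen, -6.49 to -5.14 (median -5.74) in Jejunum and -8.79 to -4.70 (median -7.96) in Peyer. The lowest Liver array was far above the highest of the others, although the Spleen arrays themselves spread widely, and FGG was above background on 3 Spleen arrays, 1 Jejunum array and 1 Peyer array. FGG differed by 12.81 or more. The fibrinogen alpha chain, FGA, was at least 4250-fold higher in Liver, being above background on 2 Spleen arrays, 2 Peyer arrays and no Jejunum array. Plasminogen, PLG, the precursor of the enzyme that dissolves clots, differed by 12.47 or more and the fibrinogen beta chain, FGB, by 12.32 or more. Protein C, PROC, an anticoagulant protease, averaged 8.55 ± 0.06 in Liver, against -2.60 ± 1.14 in Spleen, -2.18 ± 0.68 in Jejunum and -2.75 ± 0.69 in Peyer.

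The 3 smallest differences of the list were those of F5, PROS1 and F7. Factor V, F5, averaged 3.79 ± 0.25 in Liver, against -2.66 ± 0.22 in Spleen, -6.77 ± 0.80 in Jejunum and -2.93 ± 1.42 in Peyer, a difference of 6.45 ± 0.45, and 2 of 3 probes passed. Protein S, PROS1, the cofactor of protein C, differed by 3.17 ± 0.27 with Jejunum next. Factor VII, F7, differed by 2.95 or more. The 20 genes averaged 6.25 to 6.46 on the Liver arrays, against -5.23 to -2.56 in Spleen, -5.27 to -4.65 in Jejunum and -5.38 to -4.92 in Peyer.

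**Figure D1:**
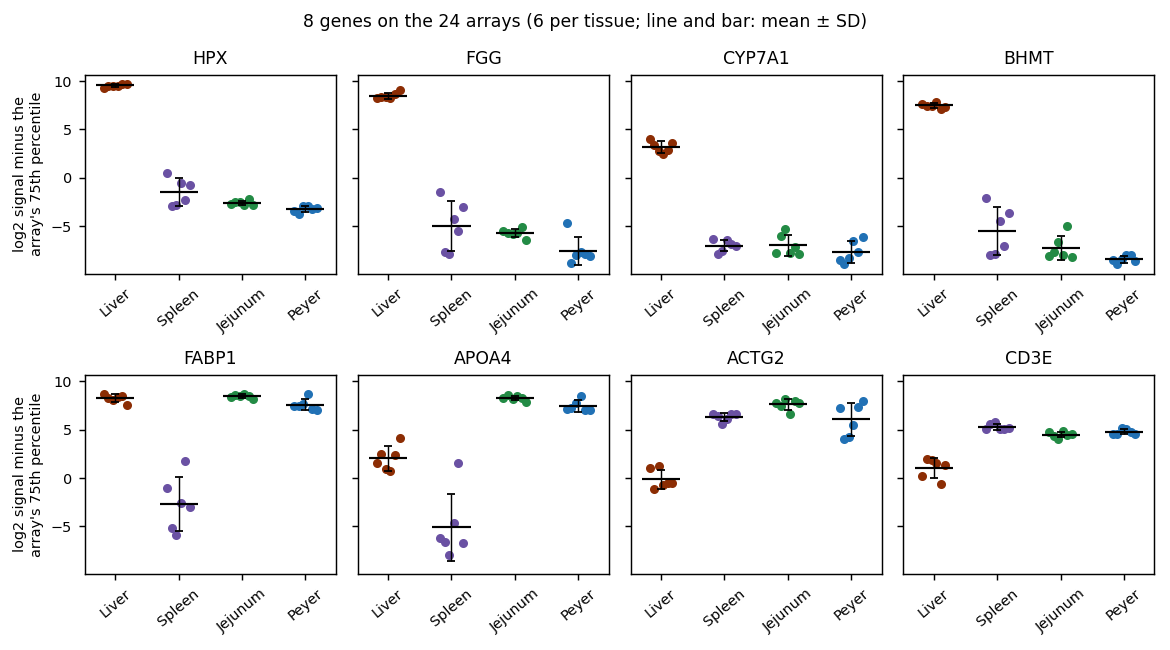
Levels (log2 signal minus the array's 75th percentile) of 8 genes on the 24 arrays, 1 point per array, with the mean and SD over 6 arrays of a tissue. HPX, FGG, CYP7A1 and BHMT are high on the 6 Liver arrays alone, FABP1 is high in Jejunum and Peyer too, APOA4 is highest in Jejunum and Peyer, and ACTG2 and CD3E are lowest in Liver.

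Complement genes were mostly higher in Liver. Of 23 tested genes, 16 were above every other tissue and 1 below, with a median difference of 2.31. The membrane attack components C8A and C8B differed by 12.06 or more and 10.13 or more. Mannose-binding lectins start the lectin pathway, and MBL1, above background on no array outside Liver, was at least 388-fold higher. MBL2 ranged widely, with 1.81 to 5.68 (median 4.42) in Liver, against -7.92 to -5.65 (median -7.25) in Spleen, -8.01 to -7.24 (median -7.93) in Jejunum and -9.15 to -3.60 (median -8.18) in Peyer. The complement proteases C1S and C1R and the central component C3 differed by 3.16, 2.31 and 2.53. Complement factor D, CFD, a protease made mainly by fat cells and macrophages, was below every other tissue, at 2.92 ± 0.44 in Liver, against 5.73 ± 0.36 in Spleen, 6.17 ± 0.17 in Jejunum and 6.03 ± 0.27 in Peyer, a difference of -2.81 ± 0.19. Properdin, CFP, a leukocyte product, differed by -2.12 ± 0.20 from Spleen.

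Acute phase proteins and antiproteases, whose plasma levels shift in inflammation, were above every other tissue for 20 of 22 tested genes, with a median of 7.72. Alpha-1-microglobulin and bikunin come from 1 gene, AMBP, which differed by 12.41 or more. Orosomucoid, ORM1, had 8.45 to 9.09 (median 8.96) in Liver, against -5.64 to 0.10 (median -2.71) in Spleen, -5.94 to -3.91 (median -4.80) in Jejunum and -6.79 to -5.79 (median -6.04) in Peyer. The antichymotrypsin gene SERPINA3 differed by 10.55 or more. Haptoglobin, HP, which binds free hemoglobin, averaged 10.02 ± 0.09 in Liver, against 0.23 ± 1.43 in Spleen, -1.24 ± 0.21 in Jejunum and -0.99 ± 1.40 in Peyer. LBP, which carries bacterial lipopolysaccharide, had the smallest difference among the members above, 3.11 ± 0.55, with Jejunum next. LEAP2, a liver and gut peptide that blocks the ghrelin receptor, had 2.22 ± 0.54 in Liver, against -7.59 ± 0.68 in Spleen, 2.20 ± 0.44 in Jejunum and 1.01 ± 0.96 in Peyer, and its difference from Jejunum was 0.02 ± 0.37 (limma adjusted p = 0.97).

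The serum amyloid A genes were above every other tissue, with Peyer next for SAA1 and SAA3. SAA proteins ride on high-density lipoprotein in inflammation, and SAA3 is also made outside the liver. Probes of this family overlap in sequence, and 2 of them are shown with their longest shared run of 37 bases in capitals, since a signal from one transcript can reach both.
SAA1: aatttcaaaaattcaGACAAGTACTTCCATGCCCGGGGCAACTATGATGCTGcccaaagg
SAA3: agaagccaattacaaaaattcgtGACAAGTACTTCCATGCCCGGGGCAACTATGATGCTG
The probe named SAA1 is also spotted under an SAA3 accession with the same sequence, so SAA1 and SAA3 are not fully separate measurements here. The brightest SAA3 probe lies elsewhere in the transcript.
SAA3 brightest: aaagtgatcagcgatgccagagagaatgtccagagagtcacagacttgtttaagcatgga
It read 4.67 to 9.86 (median 5.11) in Liver, against -3.08 to -0.89 (median -2.35) in Spleen, -2.71 to 5.30 (median -1.49) in Jejunum and -1.59 to 3.28 (median 0.71) in Peyer. Its highest Jejunum array, that of animal 75, reached into the Liver range, and the other 17 arrays outside Liver did not. SAA2 had 6.19 ± 1.82 in Liver, against -1.84 ± 0.41 in Spleen, -2.94 ± 0.12 in Jejunum and -2.42 ± 0.20 in Peyer, with no overlap, and differed by 8.03 ± 0.51.

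Carriers of hormones, metals and vitamins in plasma were above every other tissue for 12 of 13 tested genes, with a median of 10.22. The vitamin D carrier GC averaged 9.43 ± 0.09 in Liver, against -2.80 ± 2.22 in Spleen, -4.67 ± 0.59 in Jejunum and -5.89 ± 0.63 in Peyer and differed by 12.23 ± 0.65. Transthyretin, TTR, a carrier of thyroid hormone and retinol-binding protein, differed by 11.91 ± 0.60. The thyroxine-binding globulin gene SERPINA7 was above background on no array outside Liver and was at least 1360-fold higher. Albumin, ALB, had 9.71 to 10.11 (median 9.89) in Liver, against -2.73 to 2.43 (median -0.41) in Spleen, -3.5 to -1.76 (median -2.17) in Jejunum and -4.75 to -3.79 (median -4.05) in Peyer. Ceruloplasmin, CP, the copper carrier, differed by 7.48 ± 0.47 from Spleen, where it averaged -0.22 ± 1.08, and AFM, a carrier of vitamin E, by 3.51 ± 0.16. Selenoprotein P, SELENOP, was the member not called, at 8.38 ± 0.29 in Liver, against 5.65 ± 0.31 in Spleen, 7.50 ± 0.58 in Jejunum and 6.33 ± 0.85 in Peyer, and its difference from Jejunum was 0.88 ± 0.31.

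Of 20 tested lipoprotein genes, 12 were above every other tissue, with a median of 5.0. APOC4, a minor apolipoprotein, averaged 6.81 ± 0.21 in Liver, against -3.47 ± 0.71 in Spleen, -4.19 ± 0.19 in Jejunum and -4.52 ± 0.18 in Peyer, and hepatic lipase, LIPC, APOA5 and APOE differed by 7.43, 6.51 and 3.91. Genes of chylomicron assembly, which the small intestine also carries out, were not called above every other tissue. APOA4 was lower in Liver than in Jejunum, with 0.69 to 4.12 (median 1.98) in Liver, against -7.96 to 1.56 (median -6.41) in Spleen, 7.92 to 8.62 (median 8.31) in Jejunum and 7.02 to 8.48 (median 7.19) in Peyer, a difference of -6.27 ± 1.0 from Jejunum. The microsomal transfer protein MTTP had 5.50 ± 0.17 in Liver, against -3.44 ± 1.11 in Spleen, 6.12 ± 0.15 in Jejunum and 5.02 ± 0.62 in Peyer, and APOA1 and APOB differed from Jejunum by 0.40 ± 0.21 and 1.14 ± 0.62. Lipoprotein lipase, LPL, which works at the capillary wall of muscle and fat, is not among the 20 genes. It was above background on no Liver array and at least 8.41-fold lower than in any other tissue, and 4 of 6 probes passed.

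The paraoxonase genes PON1 and PON3, which encode enzymes carried on high-density lipoprotein, were above every other tissue. PON3 and 1 of 2 PON1 probes were uneven between livers. PON3 had 1.5 to 7.34 (median 6.51) in Liver, against -7.98 to -5.27 (median -6.86) in Spleen, -8.22 to -2.53 (median -3.5) in Jejunum and -8.66 to -3.65 (median -5.60) in Peyer. Its Liver values were 6.29, 6.83, 6.74 and 7.34 in animals 68, 69, 70 and 73, against 3.21 in animal 71 and 1.5 in animal 75. The same pair of animals was lowest in Jejunum, at -8.12 and -8.22 against -3.72 to -2.53, and in Peyer, at -8.10 and -8.66 against -5.76 to -3.65. All 4 PON3 probes had these 2 livers lowest. PON1 has 2 probes whose patterns over the animals differ, and both are shown, named after the annotation that ties them to the gene.
PON1 ortholog: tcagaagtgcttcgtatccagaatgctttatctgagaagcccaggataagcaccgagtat
PON1 accession: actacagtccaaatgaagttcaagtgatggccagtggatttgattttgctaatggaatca
The probe named through an ortholog followed the PON3 pattern, with 5.72, 6.20, 6.21 and 6.61 in livers 68, 69, 70 and 73, against 2.61 in liver 71 and 0.86 in liver 75. The probe with a pig PON1 accession read 5.31, 4.97, 4.93, 5.64, 5.50 and 4.68 in livers 68, 69, 70, 71, 73 and 75. That probe did not share the PON3 pattern, and its Liver mean was 10.64 or more above every other tissue, in which it was above background on no array.

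Of 10 tested genes of the urea cycle and ammonia handling, 4 were above every other tissue, with a median of 1.91, while all 10 were called higher than Spleen alone (18% of all genes at a difference of 1), than Jejunum alone (16.1%) and than Peyer alone (21.2%). The listed urea cycle enzymes CPS1 and ASL were not tested. Arginase, ARG1, which releases urea, had 4.94 to 6.29 (median 5.58) in Liver, against 0.77 to 2.41 (median 1.69) in Spleen, -3.63 to -2.58 (median -2.98) in Jejunum and -4.84 to -3.29 (median -4.34) in Peyer, a difference of 4.00 ± 0.29 from Spleen. Glutamate dehydrogenase, GLUD1, differed by 2.59 ± 0.15, with 11 of 11 probes passing, and glutaminase GLS2 by 2.79 ± 0.12. Acetylglutamate synthase, NAGS, which makes the activator of the cycle, had 5.71 ± 0.21 in Liver, against -4.67 ± 0.76 in Spleen, 4.17 ± 0.12 in Jejunum and 3.23 ± 0.58 in Peyer, with Jejunum next. The mitochondrial ornithine carrier SLC25A15 and glutamine synthetase, GLUL, differed by 1.09 ± 0.23 from Jejunum and 1.24 ± 0.23 from Spleen.

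Amino acid breakdown had 22 of 35 tested genes above every other tissue and none below, with a median of 3.12. Betaine-homocysteine methyltransferase, BHMT, which regenerates methionine, had 7.15 to 7.88 (median 7.44) in Liver, against -8.03 to -2.09 (median -5.75) in Spleen, -8.16 to -4.98 (median -7.89) in Jejunum and -8.95 to -8.01 (median -8.48) in Peyer, and differed by 12.16 or more. Tryptophan dioxygenase, TDO2, the first enzyme of tryptophan breakdown, differed by 11.65 or more. The tyrosine pathway enzymes HGD, FAH and HPD differed by 9.88 or more, 5.26 and 3.5, and urocanase, UROC1, of histidine breakdown by 11.34 or more. Alanine aminotransferase, GPT, was instead lower than in Jejunum, with a difference of -1.72 ± 0.26, and serine dehydratase, SDS, was lower than in Spleen, with a difference of -1.79 ± 0.50. Its relative SDSL differed from Jejunum by 0.00 ± 0.25 (limma adjusted p = 0.99).

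Of 27 tested cytochrome P450 genes, 15 were above every other tissue, with a median of 3.38. CYP2E1, which oxidises ethanol, had 8.35 to 8.77 (median 8.56) in Liver, against -6.12 to -0.88 (median -3.25) in Spleen, -5.37 to -4.32 (median -5.08) in Jejunum and -6.94 to -4.53 (median -5.91) in Peyer. CYP2A19, which clears skatole in pigs, differed by 10.47 ± 0.50 and CYP2C33 by 10.04 or more. CYP7A1, the rate-limiting enzyme of bile acid synthesis, was above background on 1 Jejunum array and on none of the Spleen and Peyer arrays. It read 3.19 ± 0.61 in Liver, against -7.01 ± 0.60 in Spleen, -7.00 ± 1.05 in Jejunum and -7.67 ± 1.13 in Peyer, at least 403-fold higher. CYP2C34 and CYP2C49 were highest in the liver of animal 71, at 7.75 and 7.11, and lowest in that of animal 70, at 3.81 and 3.0. CYP1B1, a form of other tissues, was above background on no Liver array and differed by -1.94 or lower from Spleen. CYP2R1, a vitamin D hydroxylase, and CYP46A1, a brain cholesterol hydroxylase, differed by -0.81 ± 0.27 and -0.59 ± 0.27 from the highest other tissue.

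Other drug and alcohol enzymes followed, with 22 of 35 above every other tissue and a median of 2.35. The alcohol dehydrogenase ADH4 was above background on 1 Spleen array and at least 3670-fold higher, and the bile acid and steroid sulfotransferase SULT2A1 differed by 11.23 ± 0.47. Nicotinamide methyltransferase, NNMT, was above background on no array outside Liver and at least 800-fold higher. The carboxylesterases CES1 and CES3 share a probe sequence, and their levels of 8.84 ± 0.12 and 8.86 ± 0.12 in Liver, against 6.71 ± 0.26 and 6.71 ± 0.25 in Jejunum, count as a single measurement. That CES3 probe is named through an ortholog. The CES3 probe with a pig accession averaged 1.47 ± 0.45 in Liver, against 0.62 ± 0.48 in Jejunum. Its difference of 0.84 was under the threshold of 2. Glutathione transferase GSTP1, an isoform of bile ducts and many other epithelia, was lower than in each other tissue, at 2.36 ± 0.76 in Liver, against 4.02 ± 0.28 in Spleen, 5.22 ± 0.24 in Jejunum and 4.99 ± 0.44 in Peyer. The microsomal transferases MGST1 and MGST2 differed from Jejunum by 0.20 ± 0.28 and -0.42 ± 0.36.

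Bile acid synthesis and transport had 16 of 22 tested genes above every other tissue, with a median of 3.80. SLC10A1, the sinusoidal transporter that takes bile acids back from blood, was above background on 1 Spleen array and at least 1950-fold higher, with 5.16 to 5.91 (median 5.62) in Liver. The bile acid coenzyme A ligase SLC27A5 and the reductase AKR1D1 differed by 10.16 ± 0.37 and 10.01 or more. The canalicular exporter ABCB11 differed by 9.13 or more and the phospholipid exporter ABCB4 by 2.67. The canalicular flippase ATP8B1 was instead lower than in Jejunum, with 1.28 ± 0.27 in Liver, against -0.45 ± 0.46 in Spleen, 4.37 ± 0.21 in Jejunum and 3.18 ± 0.61 in Peyer. The sterol exporter ABCG8 and the repressor NR0B2 differed from Jejunum by -0.66 ± 0.30 and -0.10 ± 0.40.

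Membrane carriers of hepatocytes had 10 of 22 tested genes above every other tissue and 1 below, with a median of 1.66. The amino acid carrier SLC38A4 differed by 8.40 or more. The phosphate and urate carrier SLC17A1, with no array above background outside Liver, was at least 89.1-fold higher. The glycerol channel AQP9 differed by 7.20 or more, whereas another glycerol channel, AQP3, was below every other tissue at -3.35 to -1.52 (median -2.73) in Liver, against 1.54 to 3.17 (median 2.19) in Spleen, 1.79 to 2.86 (median 2.56) in Jejunum and 0.88 to 2.42 (median 1.73) in Peyer, a difference of -4.37 ± 0.30, with 4 of 4 probes passing. AQP8 and the aromatic amino acid carrier SLC16A10 were -3.17 ± 0.42 and -2.09 ± 0.23 against Jejunum.

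Glucose and fructose metabolism had 15 of 26 tested genes above every other tissue, with a median of 2.76. GCKR, a regulator of hepatic glucose phosphorylation, was above background on no array outside Liver and at least 27.8-fold higher. Hexokinase 2, HK2, the insulin-responsive form of muscle, is not among the 26 genes. It was at the other end, with -4.72 ± 0.61 in Liver, against -0.96 ± 0.21 in Spleen, 0.13 ± 0.28 in Jejunum and 0.01 ± 0.23 in Peyer, a difference of -3.52 or lower, with 1 of 2 probes passing and 4 Liver arrays above background. Glucose-6-phosphatase, G6PC, which releases glucose to the blood, had 2.49 to 4.25 (median 3.29) in Liver, against -5.44 to -4.53 (median -4.83) in Spleen, -3.19 to -0.57 (median -2.32) in Jejunum and -4.04 to -0.67 (median -2.91) in Peyer, a difference of 5.39 ± 0.51. The pyruvate carboxylase gene PC and the carboxykinases PCK1 and PCK2, which feed gluconeogenesis, differed by 4.25, 3.80 and 3.92. PFKFB1, which sets fructose-2,6-bisphosphate, differed by 4.92 ± 0.31 and the calcium-binding lactonase RGN by 7.27 ± 0.35. Ketohexokinase, KHK, of fructose breakdown was 0.34 ± 0.24 against Jejunum. Lactate dehydrogenase A, LDHA, was lower than in Jejunum, with a difference of -2.97 ± 0.19.

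The isozymes of glycolysis and glycogen breakdown that other tissues use had 4 of 22 tested genes below every other tissue, against 2.67% of all genes, and none above. After normexp correction 1 was below, and in the authors' deposited values none. Muscle glycogen phosphorylase, PYGM, was above background on no Liver array and at least 10.2-fold lower. The pyruvate kinase gene PKM2 had -1.1 to 0.27 (median 0.05) in Liver, against 2.16 to 2.95 (median 2.76) in Spleen, 3.47 to 4.12 (median 3.96) in Jejunum and 3.16 to 4.33 (median 3.4) in Peyer, a difference of -2.82 ± 0.22, with 5 of 5 probes passing. Neuronal enolase, ENO2, differed by -2.28 or lower. GAPDH, which all cells use, averaged 8.83 ± 0.19 in Liver, against 8.30 ± 0.16 in Spleen, 8.63 ± 0.17 in Jejunum and 8.06 ± 0.46 in Peyer.

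Fatty acid oxidation and ketone body synthesis had 12 of 29 tested genes above every other tissue and none below, with a median of 1.71. The acyl-coenzyme A synthetase ACSL1 differed by 5.20 ± 0.16 and the dienoyl reductase DECR1 by 4.00 ± 0.25. OXCT1, which ketone-using tissues need and hepatocytes are known to lack, is not among the 29 genes. It was below every other tissue at -2.11 ± 0.33 in Liver, against 1.5 ± 0.40 in Spleen, 2.16 ± 0.29 in Jejunum and 0.97 ± 0.42 in Peyer, a difference of -3.08 ± 0.21, with 3 of 4 probes passing. CPT1A, the entry step of mitochondrial oxidation, had 2.13 ± 0.85 in Liver, against 2.27 ± 0.29 in Spleen, 1.58 ± 0.18 in Jejunum and 1.82 ± 0.33 in Peyer and differed from Spleen by -0.14 ± 0.27. ACSL5 and ACADL were -0.29 ± 0.21 and -0.26 ± 0.15 against Jejunum.

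Lipid synthesis had 16 of 27 tested genes above every other tissue, with a median of 2.29. The lipid droplet hydrolase PNPLA3 differed by 8.19 ± 0.46. Stearoyl desaturase, SCD, had 5.78 to 7.96 (median 7.30) in Liver, against 0.55 to 1.40 (median 0.91) in Spleen, 1.1 to 3.37 (median 1.64) in Jejunum and 1.31 to 2.73 (median 2.05) in Peyer, a difference of 5.11 ± 0.36 with 10 of 10 probes passing. The desaturases FADS1 and FADS2 differed by 3.93 ± 0.25 and 2.90 ± 0.34, and 1 of 2 FADS1 probes passed. The triglyceride enzymes split, since DGAT2 differed by 3.48 ± 0.51 and DGAT1 was lower than in Jejunum, with a difference of -2.36 ± 0.24. The fatty acid binding protein FABP1 was high in the gut too, with 7.57 to 8.74 (median 8.34) in Liver, against -5.89 to 1.74 (median -2.79) in Spleen, 8.18 to 8.74 (median 8.50) in Jejunum and 7.04 to 8.66 (median 7.45) in Peyer, and its difference from Jejunum was -0.24 ± 0.78 (limma adjusted p = 0.81). FABP5, a form of macrophages and skin, is not among the 27 genes. It was below every other tissue, with -0.53 ± 0.24 in Liver, against 4.03 ± 0.62 in Spleen, 3.98 ± 0.28 in Jejunum and 4.02 ± 0.17 in Peyer, a difference of -4.51 ± 0.21, and 5 of 5 probes passed.

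Peroxisome, retinol and one-carbon enzymes had 14 of 25 tested genes above every other tissue, with a median of 2.10. The folate enzyme ALDH1L1 and the retinol-binding protein RBP4 differed by 9.44 ± 0.31 and 8.78 ± 0.18. Urate oxidase, UOX, a peroxisomal enzyme whose gene is inactive in humans, had 2.28 to 2.88 (median 2.53) in Liver, against -6.71 to -4.90 (median -5.66) in Spleen, -7.36 to -5.42 (median -5.78) in Jejunum and -6.54 to -4.70 (median -6.27) in Peyer, a difference of 7.67 or more. GULO, which makes vitamin C and is likewise inactive in humans, was above background on no array outside Liver and at least 1600-fold higher, with 4.51 to 6.00 (median 5.06) in Liver. Threonine dehydrogenase, TDH, another gene inactive in humans, was at least 1360-fold higher by the same measure. LRAT, which esterifies retinol, was -2.36 ± 0.37 against Jejunum and 2.89 or more against Spleen. The hydroxyacid oxidase HAO2 was not called by its brightest probe, at -0.21, but 2 of 3 probes were at least 2 above.

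Of 31 tested transcription factors, 6 were above every other tissue, against 5.69% of all genes, NR1H4, PROX1, NR1I3, FOXA1 and HNF4A among them, and the median was 0.41, against -0.44 over all genes tested. The bile acid receptor NR1H4 had 2.58 ± 0.19 in Liver, against -6.50 ± 0.45 in Spleen, -1.12 ± 0.49 in Jejunum and -2.01 ± 0.56 in Peyer, a difference of 3.70 ± 0.25. PROX1, a factor of hepatoblasts, differed by 3.54 ± 0.23, and the xenobiotic receptor NR1I3 by 3.21 ± 0.38. FOXA1 differed by 2.38 ± 0.25 from Jejunum and by 7.29 or more from Spleen. HNF4A, shared by liver and intestine, was 2.20 ± 0.24 against Jejunum, and 2 of 5 HNF4A probes passed. HNF4G was lower than in Jejunum, with a difference of -3.85 or lower, as was TBX3, with -1.40 ± 0.26.

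Hormones, growth factors and their receptors had 12 of 24 tested genes above every other tissue, with a median of 2.25. The deiodinase DIO1, which activates thyroid hormone, differed by 7.83 or more, and hemojuvelin, HFE2, a coreceptor for hepcidin control, by 6.16 ± 0.25. Angiotensinogen, AGT, the transferrin receptor TFR2 and the growth hormone receptor GHR differed by 6.14, 4.40 and 3.20. The prolactin receptor PRLR was lower than in Jejunum, with a difference of -3.22 ± 0.32. IGF1, a growth factor that the liver secretes, depended on the probe. Its brightest probe, named through an ortholog, averaged 0.60 ± 0.30 in Liver, against 2.41 ± 0.24 in Spleen, 0.02 ± 0.17 in Jejunum and 0.75 ± 0.38 in Peyer. The brighter of 2 probes with a pig accession averaged 0.51 ± 0.90 in Liver, against -3.45 ± 0.26 in Spleen, -1.89 ± 0.37 in Jejunum and -2.45 ± 0.53 in Peyer. GHRHR was -1.64 or lower against Peyer.

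Markers of the other liver cell types were mixed. The listed Kupffer cell markers MARCO and TIMD4 were not tested. Of 16 Kupffer cell and macrophage genes, 3 were above every other tissue and 1 below, against 5.69% and 2.67% of all genes. Against Spleen alone 8 were called lower, against 20.8% of all genes. Against the gut, 14 of the 16 were called higher than in Jejunum (16.1% of all genes) and 12 higher than in Peyer (21.2%), and the mean level of the list was 1.98 in Liver, against 2.05 in Spleen and -0.81 in both Jejunum and Peyer. The macrophage receptors FOLR2, MRC1 and VSIG4 differed by 5.21 ± 0.17, 3.93 ± 0.25 and 3.91 ± 0.30, with 1 of 2, 2 of 2 and 5 of 7 probes passing. MRC1 averaged 4.18 ± 0.40 in Liver, against 0.24 ± 0.72 in Spleen, 0.20 ± 0.32 in Jejunum and 0.00 ± 0.22 in Peyer. The scavenger receptor CD163, abundant in spleen macrophages as well, was -0.11 ± 0.32 against Spleen. The receptor CSF1R and the complement subunit C1QC were lower than in Spleen, with differences of -2.69 ± 0.28 and -2.18 ± 0.15. Lysozyme, LYZ, a Paneth cell and macrophage product, was below every other tissue at 0.05 ± 0.71 in Liver, against 2.60 ± 0.62 in Spleen, 7.68 ± 0.32 in Jejunum and 6.83 ± 0.49 in Peyer, with 5 of 5 probes passing.

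Of 15 sinusoidal endothelial genes, 3 were above every other tissue and none below, against 5.69% and 2.67% of all genes. The listed markers STAB1 and STAB2 were not tested. The lectin CLEC4G had 5.41 to 6.28 (median 6.02) in Liver, against 0.77 to 3.45 (median 3.02) in Spleen, -7.20 to -5.27 (median -6.60) in Jejunum and -3.48 to 2.04 (median 0.72) in Peyer, a difference of 3.20 ± 0.64, with Spleen next, whereas the authors' deposited values gave -0.83. WNT2, a signal of central vein and sinusoidal endothelium, differed by 2.47 or more, and the receptor KDR, at 1.78 ± 0.31, was under the threshold. VWF, a product of ordinary vessels, was lower than in every other tissue by at least 1, with -0.42 ± 0.25 in Liver, against 0.66 ± 0.36 in Spleen, 1.84 ± 0.25 in Jejunum and 1.5 ± 0.35 in Peyer. DNASE1L3 was -1.64 ± 0.20 against Spleen.

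Of 12 bile duct genes, 1 was above every other tissue and 1 below, and of 11 stellate cell genes 3 were above and 1 below, against 5.69% and 2.67% of all genes. Keratin 18, KRT18, which hepatocytes contain, was the duct gene above, at 3.39 ± 0.57. The epithelial genes EPCAM and KRT19 were -8.00 ± 0.53 and -7.98 ± 0.75 against Jejunum, whose epithelium holds both, but 2.83 or more and 1.49 or more against Spleen. The Spleen array of animal 73 was an exception. It read -1.23 for EPCAM, within the -2.17 to -1.09 of Liver, and -0.33 for KRT19, above the -3.19 to -1.35 of Liver. The same array was the highest Spleen array for APOA4, at 1.56, and FABP1, at 1.74, and the cause was not tested. AQP1 was below every other tissue, with a difference of -2.57 ± 0.27. Among the stellate genes the collectins COLEC10 and COLEC11 and the matrix protein RELN were above, by 4.85 ± 0.23, 4.29 ± 0.39 and 3.12 ± 0.39. Desmin, DES, which smooth muscle shares, was below at 2.69 ± 0.26 in Liver, against 6.17 ± 0.34 in Spleen, 6.71 ± 0.53 in Jejunum and 5.24 ± 1.66 in Peyer, and RGS5 and DCN were -3.96 ± 0.28 and -2.40 ± 0.36 against Jejunum.

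**Figure D2:**
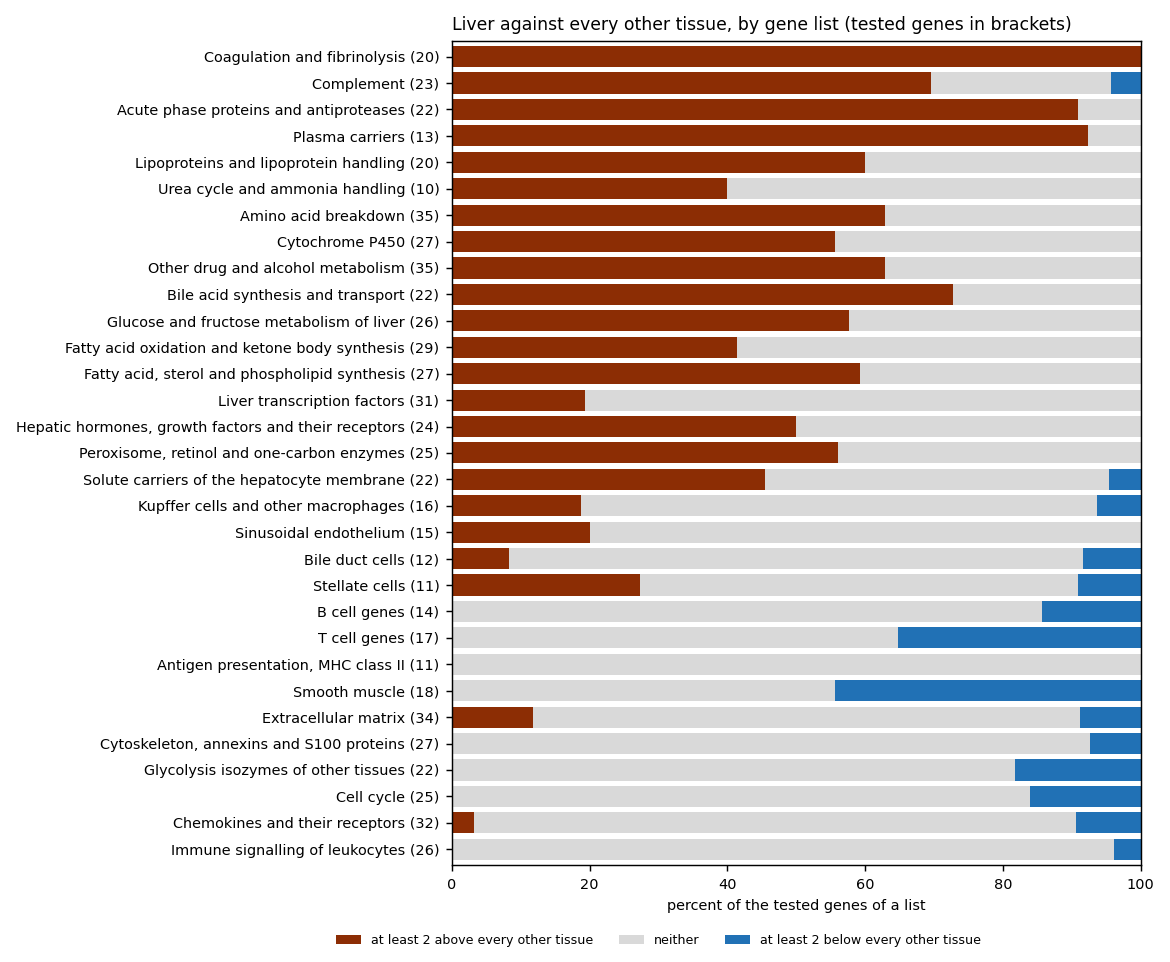
Share of the tested genes of 31 gene lists (number tested in brackets) with a Liver mean at least 2 log2 units above every other tissue, at least 2 below every other tissue, or neither, in percent. All 20 coagulation genes are above, 8 of 18 smooth muscle genes and 6 of 17 T cell genes are below, and the MHC class II list has no gene in either class.

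Smooth muscle genes had the largest share below every other tissue among the 31 lists, 8 of 18 tested, against 2.67% of all genes. Their median difference from the lowest other tissue was -1.85, and 3 of them were below in the authors' deposited values. Spleen has a muscular capsule and trabeculae and the gut a muscle coat, and liver has smooth muscle mainly in its vessels. The probe of smooth muscle myosin, MYH11, is shown because it gave no signal above background on any Liver array.
MYH11: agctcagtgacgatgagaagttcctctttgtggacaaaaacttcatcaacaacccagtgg
It read -6.99 to -5.25 (median -6.16) in Liver, against -1.08 to 1.19 (median -0.21) in Spleen, -0.56 to 1.31 (median 0.68) in Jejunum and -4.65 to 0.11 (median -1.26) in Peyer. No Liver array reached the lowest array elsewhere, and MYH11 was at least 9.54-fold lower. Enteric smooth muscle actin, ACTG2, had -1.12 to 1.2 (median -0.55) in Liver, against 5.59 to 6.60 (median 6.49) in Spleen, 6.64 to 8.18 (median 7.77) in Jejunum and 4.07 to 7.99 (median 6.39) in Peyer, the largest difference at -6.19 ± 0.56, although 1 of 2 probes passed. Calponin, CNN1, differed by -5.13 ± 0.55 with 3 of 3 probes passing, and the filament protein SYNM by -3.05 ± 0.57. Caldesmon, CALD1, was instead higher in Liver, by 1.09 ± 0.26, and KCNMB1 and SMTN were 0.15 and 0.09 from the lowest tissue. Among the 4 tissues the Peyer arrays spread most for MYH11, ACTG2, CNN1 and SYNM, with CNN1 at 4.32 ± 1.74 in Peyer.

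Matrix genes went both ways, with 4 of 34 above and 3 below, against 5.69% and 2.67% of all genes. After normexp correction 1 was below. Plasma fibronectin comes from hepatocytes, and FN1 had 7.92 ± 0.19 in Liver, against 3.22 ± 0.18 in Spleen, 4.45 ± 0.32 in Jejunum and 4.06 ± 0.43 in Peyer, a difference of 3.47 ± 0.17 with 4 of 4 probes passing. FBLN1, a blood and matrix protein, differed by 2.77 ± 0.15, with 1 of 2 probes passing. Tenascin C, TNC, of the splenic reticulum and the gut wall, was below at -3.95 to -3.06 (median -3.57) in Liver, against 1.24 to 1.78 (median 1.54) in Spleen, 0.80 to 1.64 (median 1.29) in Jejunum and -0.08 to 1.05 (median 0.61) in Peyer, a difference of -4.14 ± 0.19, and COL15A1, a basement membrane collagen, by -2.62 ± 0.27. Periostin, POSTN, was 1.0 ± 0.30 against Jejunum and 5.03 ± 0.30 against Spleen. Of 27 cytoskeleton, annexin and S100 genes, 2 were below and none above, against 2.67% and 5.69% of all genes. S100A6 and the membrane linker EZR differed by -2.60 ± 0.35 and -2.13 ± 0.17, while FLNA, at -1.74 ± 0.31, LGALS1, at -1.48 ± 0.18, and S100A4, at 1.27 from the lowest tissue, were not called.

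Lymphocyte genes were low in Liver against Spleen and Peyer, and the T cell genes also against Jejunum. Of 17 T cell genes, 6 were below every other tissue, against 2.67% of all genes, and none above. Their median difference from the lowest other tissue was -1.65, and 10 were lower than in Jejunum (17.3% of all genes). The T cell receptor chain CD3E had -0.63 to 1.93 (median 1.44) in Liver, against 5.04 to 5.82 (median 5.15) in Spleen, 4.01 to 4.84 (median 4.53) in Jejunum and 4.56 to 5.18 (median 4.69) in Peyer. The highest Liver array lay below the lowest array of the other tissues, and CD3E differed by -3.47 ± 0.32 with 3 of 3 probes passing. CD3G and CD3D differed by -3.38 ± 0.29 and -3.02 ± 0.24, and the cytokine receptor IL7R, above background on no Liver array, was at least 3.38-fold lower. The kinase LCK averaged 2.13 ± 0.13 in Liver, against 1.93 ± 0.08 in Spleen, 1.49 ± 0.09 in Jejunum and 1.81 ± 0.12 in Peyer, and was not called. CCR7, which marks naive T cells, was -4.73 ± 0.48 against Spleen and 0.48 ± 0.48 against Jejunum. After normexp correction 3 of the 17 genes were below, and in the authors' deposited values 1 was.

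Of 14 B cell genes, 2 were below every other tissue, 13 were lower than in Spleen (20.8% of all genes) and 13 lower than in Peyer (19.1%), and 3 lower than in Jejunum (17.3%). No B cell gene was below every other tissue in the authors' deposited values. The Peyer array of animal 71 stood apart for these genes, with a mean level of the list of -0.43 against 2.13 to 2.28 on the other 5 Peyer arrays and -2.16 to -1.77 in Jejunum. It also stood apart for other lists, with MHC class II at 3.32 against 4.24 to 4.46 on the other 5. On it, cell division genes averaged 0.45 against 1.37 to 1.96, and bile duct genes 2.09 against 0.96 to 1.19. Without that array, a comparison chosen after the data were seen, 2 B cell genes were below every other tissue and 13 lower than in Peyer. The complement list then had 15 genes above, against 16, and the peroxisome, retinol and one-carbon list 12, against 14. The transcription factor SPIB and the adaptor BLNK differed by -4.03 ± 0.21 and -3.59 ± 0.17. CD20, MS4A1, had -3.82 ± 0.53 in Liver, against 1.76 ± 0.28 in Spleen, -5.38 ± 0.41 in Jejunum and 1.72 ± 1.44 in Peyer. The J chain of secreted immunoglobulin, IGJ, was below every other tissue with -1.27 to 1.63 (median -0.35) in Liver, against 5.13 to 6.26 (median 5.70) in Spleen, 3.19 to 4.93 (median 4.49) in Jejunum and 2.13 to 5.54 (median 4.61) in Peyer. MHC class II and antigen processing genes had no member in either class. Lower than in Spleen were 11 of 11 (20.8% of all genes), with 7 lower than in Jejunum (17.3%) and 10 lower than in Peyer (19.1%). SLA-DRA averaged 4.25 ± 0.39 in Liver, against 7.25 ± 0.15 in Spleen, 5.84 ± 0.33 in Jejunum and 6.19 ± 0.34 in Peyer, and the protease CTSS was -1.97 ± 0.17 against Spleen and 0.23 ± 0.17 against Jejunum. Of 26 leukocyte signalling genes, 1 was below, against 2.67% of all genes, the GTPase RAC2 with -2.85 ± 0.26. Against Spleen alone 24 of them were lower (20.8% of all genes). CORO1A was -3.60 ± 0.30, ITGB2 -3.33 ± 0.25 and PLEK -1.43 ± 0.32 against Spleen.

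CCL16, a chemokine of the liver, was above every other tissue with 7.20 to 7.73 (median 7.41) in Liver, against -6.04 to -2.35 (median -4.19) in Spleen, -7.50 to -2.79 (median -5.81) in Jejunum and -7.84 to -2.68 (median -7.00) in Peyer, a difference of 11.58 or more. Of the 32 tested chemokines and receptors, 3 were below, against 2.67% of all genes, and no other was above, against 5.69%. The genes below were CCR9, the receptor of gut-homing T cells, at -2.80 ± 0.17, the eosinophil attractant CCL24 at -1.89 or lower and the B cell attractant CXCL13 at -2.44 ± 0.76. After normexp correction none of the list was below, and CCL24 was 0.15 in the authors' deposited values. CX3CR1 and CXCL12 were 0.40 ± 0.33 and -0.48 ± 0.25 against Spleen. Cell division genes had 4 of 25 below, against 2.67% of all genes, and none above. Of the 25, 21 were lower than in Spleen (20.8% of all genes), 16 than in Jejunum (17.3%) and 21 than in Peyer (19.1%). Cyclin D2, CCND2, averaged 0.69 ± 0.16 in Liver, against 4.53 ± 0.25 in Spleen, 3.01 ± 0.34 in Jejunum and 3.05 ± 0.65 in Peyer, and UBE2C, PLK1 and CDK1 differed by -2.25 ± 0.43, -2.09 or lower and -2.07 ± 0.37. The mitotic genes spread between livers, with UBE2C at -0.68 to 2.06 (median 0.24) in Liver. The list's count rested on single animals, with 9 genes below when animal 69 was left out and 1 when animal 73 was left out, and 2 were below after normexp correction. CCND1, CDK2 and CDK4 were 0.51, 0.03 and -0.32 from the highest other tissue.

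Further genes below every other tissue came from outside the lists. The dopamine transporter gene SLC6A3 was above background on no Liver array and at least 22.9-fold lower, with -6.99 to -5.81 (median -6.32) in Liver, against -0.45 to 0.74 (median -0.06) in Spleen, -0.71 to 0.40 (median -0.05) in Jejunum and -1.31 to -0.17 (median -0.33) in Peyer. The protease ADAMTS8, PRUNE2 and the muscle heat shock protein HSPB7, likewise without a Liver array above background, were at least 16.1-fold, 11.9-fold and 17.2-fold lower. The actin-severing protein SCIN had -3.30 ± 0.31 in Liver, against 1.29 ± 0.31 in Spleen, 4.12 ± 0.15 in Jejunum and 3.30 ± 0.54 in Peyer, a difference of -4.59 ± 0.20. F2RL2, a thrombin receptor relative, differed by -4.18 or lower, CCL26 by -3.94 or lower, the potassium channel gene KCNH2 by -4.47 or lower, INPP5J by -4.83 or lower and PCP4 by -4.58 or lower. C2ORF55 and KIAA1211L, at -4.42 or lower and -4.34 or lower, share a probe sequence and are 1 measurement. In all, 52 of the 289 genes were above background on no Liver array and 138 on all 6.

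Most Liver genes were even between animals, and a small set was not. Of the 616 genes, 496 had an SD under 0.5 over the 6 livers and 28 an SD of 1 or more, with a median of 0.32, against 0.27 over all genes tested. The liver of animal 75 was the one most often apart, with 41 of the 616 genes 1 or more under the median liver and 15 that far over it, against 2 to 8 under and 3 to 13 over in the other 5 animals. High in that liver were several acute phase genes, DEFB1 and NNMT. SAA1 was 8.81 in animal 75, against 2.95 to 4.00 in the other livers, SAA2 was 9.78 against 4.98 to 6.27, and SERPINA3 was 7.17 against 4.58 to 4.92. CRP was 8.27 against 4.83 to 6.47, the antimicrobial peptide DEFB1 was 6.69 against 2.0 to 3.69 and NNMT was 6.19 against 3.41 to 5.08. Of the 22 tested acute phase genes and antiproteases, 7 were 1 or more over the median liver in animal 75 and 2 that far under it, against 1.88% and 1.86% of all genes tested. ITIH4 was 9.49 against 7.74 to 8.33 and LBP 2.45 against -0.07 to 1.46, whereas HP, at 10.05 against 9.90 to 10.16, and ORM1, at 9.09 against 8.45 to 9.07, differed little from the other livers.

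Metabolic genes went both ways in the liver of animal 75. Of 27 lipid synthesis genes, 6 were 1 or more under the median liver and none that far over it, against 3 and 0 of 27 cytochrome P450 genes and 2 and 1 of 26 glucose and fructose genes. The glycogen-targeting subunits PPP1R3C and PPP1R3B were 1.23, against 3.60 to 4.69, and -3.72, against -0.75 to 0.24. PNPLA3 was 2.32 against 4.06 to 5.14, the serine synthesis enzyme PHGDH 2.95 against 4.70 to 5.54 and CYP2A19 4.24 against 5.89 to 7.70. CYP2E1, at 8.50, lay within the 8.35 to 8.77 of the others. The gluconeogenic genes PCK1 and G6PC were highest in animal 75, at 7.75 against 5.60 to 7.60 and 4.25 against 2.49 to 3.75, as was CPT1A, at 3.67 against 1.11 to 2.24. Hepcidin, HAMP, the hormone that limits iron export, was lowest in animal 75 at 1.31 and highest in animal 73 at 6.80, with 2.08, 4.11, 4.65 and 3.61 in animals 68, 69, 70 and 71. The SAA3 signal of animal 75 was also the highest of its tissue in the other 3 tissues, at 5.30 in Jejunum against -2.71 to -0.88, at 3.28 in Peyer against -1.59 to 1.5 and at -0.89 in Spleen against -3.08 to -2.16. What set this animal apart is not given in the labels and was not tested. Without its Liver array, 606 of the 616 and 278 of the 289 genes stayed called, a comparison chosen after the data were seen.

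**Figure D3:**
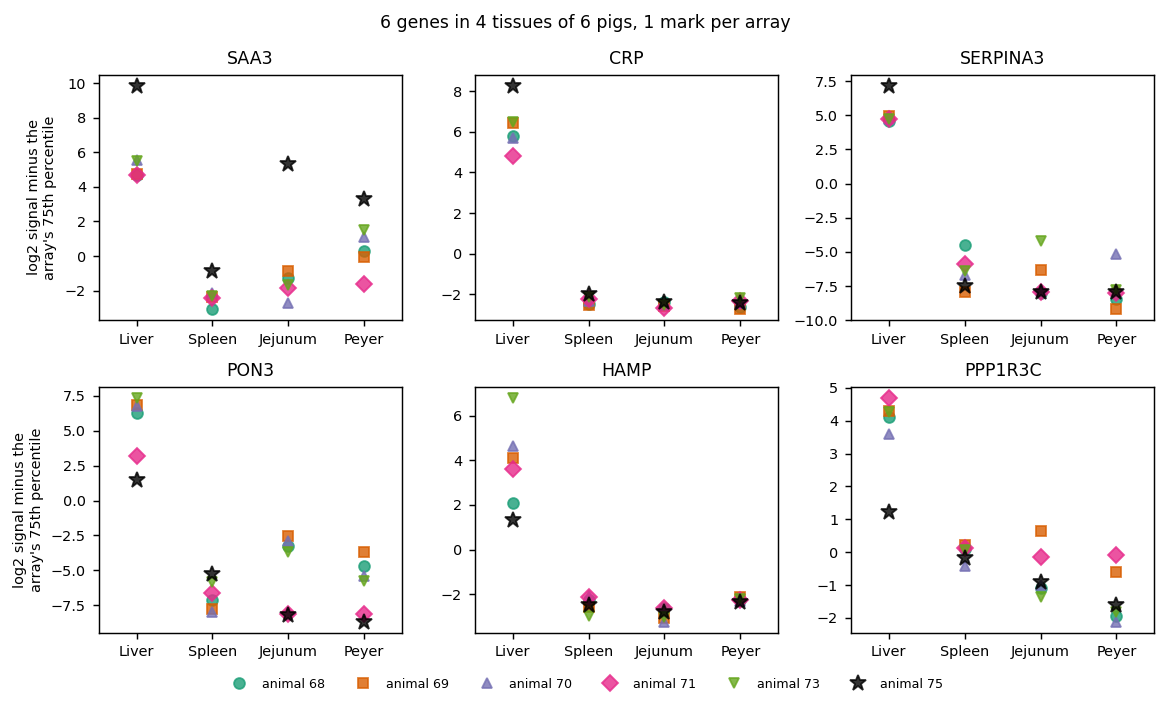
Levels (log2 signal minus the array's 75th percentile) of 6 genes in Liver, Spleen, Jejunum and Peyer, 1 mark per array and animal. Animal 75 is highest for SAA3 in all 4 tissues and for CRP and SERPINA3 in Liver, animals 71 and 75 are lowest for PON3 in Liver, Jejunum and Peyer, and HAMP spreads from 1.31 to 6.80 between livers.

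Outside the lists, 374 genes were above every other tissue. Among them GALP, a hypothalamic peptide gene, was 1.65 to 2.61 in livers of animals 68, 69, 70 and 73 but -0.53 and -1.01 in animals 71 and 75. TMEM52B read 3.5 and 3.85 in animals 70 and 73 and -0.90 to -0.10 in the other 4. CLEC18A ran between -1.39 in animal 69 and 3.89 in animal 68. PZP, a protease inhibitor of plasma, the secreted phosphoprotein SPP2 and METTL7B differed by 12.01 or more, 11.67 or more and 11.60 or more, with PZP at 6.74 to 7.35 (median 6.87) in Liver.

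Spleen was the tissue next to Liver for many plasma protein genes, 14 of the 20 coagulation genes among them, and 3 Spleen arrays were higher than the others for such genes. The Spleen arrays of animals 68, 71 and 75 read 2.43, 0.55 and 1.14 for ALB, against -1.88, -2.73 and -1.36 in animals 69, 70 and 73. ORM1 was 0.10, -1.45 and -0.68 in the same 3 spleens, against -5.03, -5.64 and -3.97, and CYP2E1 was -0.88, -2.25 and -1.72, against -5.21, -6.12 and -4.24. All 3 arrays lay above the other 3 Spleen arrays for 124 of the 616 genes, against 12.1% of all genes tested. These 3 arrays were also the dimmest of the tissue, with 75th percentile signals of 416.9, 275.4 and 679.1, against 879 to 1098, and with their dimmest above-background signals at -4.91, -4.42 and -5.49, against -6.24 to -5.82. Among the 395 genes that were above background on all 6 Spleen arrays, 55 (13.9%) had all 3 arrays above the others, against 12% of all genes above background there. Spleen was next to Liver for 242 genes with these arrays and for 195 without them, when Jejunum was next for 350 and Peyer for 71. The call itself stayed for 609 of the 616 and 284 of the 289 genes without them, in a comparison chosen after the data were seen. The part of these arrays in the Spleen levels beyond this was not tested.

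**Figure D4:**
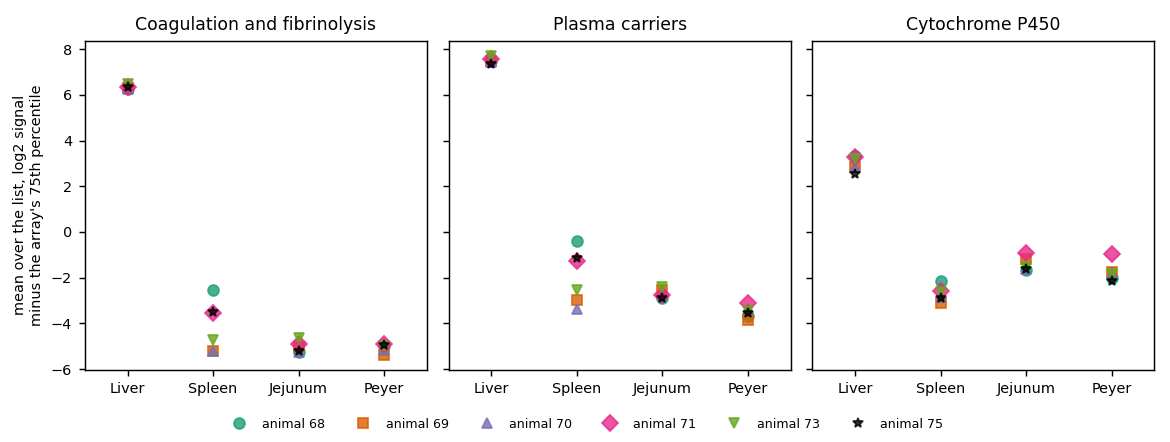
Mean level over the tested genes of 3 lists (log2 signal minus the array's 75th percentile) in Liver, Spleen, Jejunum and Peyer, 1 mark per array and animal. The coagulation list lies at 6.25 to 6.46 on the 6 Liver arrays, and among the Spleen arrays, at -5.23 to -2.56, those of animals 68, 71 and 75 are the highest.

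Genes with several probes gave a measure of how far a call depends on the probe. Of 352 genes above every other tissue that had several tested probes, 288 passed with every probe, and of 162 genes below, 74 did. The probes of serum amyloid P, APCS, disagreed. Its brightest probe, named through an ortholog, averaged -4.40 ± 0.55 in Liver, against -5.90 ± 1.82 in Spleen, 4.94 ± 0.73 in Jejunum and 4.18 ± 0.85 in Peyer. A probe with a pig APCS accession averaged 5.71 ± 0.33 in Liver, against -5.71 ± 1.91 in Spleen, -6.61 ± 1.18 in Jejunum and -7.64 ± 1.29 in Peyer, a difference of 10.76 or more. CYP1A2 likewise differed by -0.55 by its brightest probe and by 8.20 or more by the other, which was above background on no array outside Liver. A total of 60 genes not called had another probe at least 2 above. Of 19733 tested probes with no gene symbol, 771 (3.91%) were at least 2 above every other tissue and 548 (2.78%) at least 2 below.

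The threshold of 2 divided close values of the measured difference. Just inside it lay the lysosomal membrane protein LAMP2 at 2.0, CYP3A4 at 2.0, KLF9 at 2.0, KIF12 at 2.0 and DBI at 2.0. Just outside lay complement factor I, CFI, at 2.0 after rounding, AHR at 1.99, SYDE2 at 1.99 and METTL27 at 1.98. Among the low genes, MGLL, CD248, SLAMF1, ZNF287 and CST7 lay just inside, at -2.0, -2.0, -2.0, -2.0 and -2.01. RGS3, ARHGAP27, GAL3ST4, C3H2orf40 and KIF1A lay just outside, at -2.0, -2.0, -1.99, -1.99 and -1.99, those of RGS3 and ARHGAP27 after rounding. SLAMF1 was above background on no Liver array.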

How the data were processed

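RNA from 24 whole tissue pieces was hybridised to 1-colour Agilent pig arrays, 1 array per sample, from 200 ng of RNA each (RNA integrity number over 7.5), per the labels' protocols. The deposited scanner files, written by Agilent Feature Extraction 10.10.1.1 per the file headers, hold spot intensity values that the scanner software had background-subtracted. The authors also deposited a table of log2 values, named with limma in the submitters' processing notes, and its scale and centring are not stated. Its columns share a median of 8.24, and between the 2 slide sets its probes differ with an SD of 0.114, against 1.5 in the scanner values, so it was used as an alternative.

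From each array's 61625 spots, 1319 controls were left out, spots of 1 probe were averaged, and log2 processed signals were set relative to the array's 75th percentile. Probes were kept that the scanner software called well above background throughout at least 1 tissue (6 of its 6 arrays) and flagged as an outlier on no array. These 42650 probes were fitted with limma 3.58.1 in R 4.3.3, with tissue as the factor, Benjamini-Hochberg adjustment over all kept probes and no block. Pairwise calls need a difference of 1 and an adjusted p under 0.05, and calls against every other tissue a difference of 2. Symbols came from the files' accessions and names and from gene tables (22917 kept probes, 53.7%, of which some through orthologs in other species), and a gene is its probe of highest mean. No reference genome was used. In simulated data, with 42650 probes in the fit, 18% of probes raised by 2 log2 units and 98% of those raised by 3 were called above every other tissue. Samples with 1 animal number come from 1 animal, and of 36 pairs of same-animal arrays 26 had deviations that correlated over 0.1, with a mean of 0.17. The number of arrays limits the precision.

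The members, lists and tests were chosen with earlier results of these data known. Named genes were the 20 largest differences in each direction, up to 4 largest and 3 smallest per list, the 5 nearest the threshold on each side and 5 hepatocyte markers. C1S, C1R, C3, HP, SAA2, SAA3, ALB, LIPC, APOA1, APOA5, APOB, APOE, FAH, HPD, CES1, CES3, ABCB4, ABCB11, AQP9, PC, PCK1, PCK2, KHK, OXCT1, FADS2, HNF4A, AGT, TFR2, GHR, CD163, and the genes given by animal or by probe, were chosen after their values were seen. Some genes that this rule names are not reported here.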

Additional observations from a re-analysis of the deposited data

Results flagged for a closer look

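In 18 of 242 named genes and 3 of 31 lists, 1 Liver array stood apart from the other 5 by Dixon's criterion, which chance meets in about 1 in 20 groups. The arrays of animals 73 and 75 were the ones apart for 7 genes each, those of animals 68 and 70 for 2 each, and those of animals 69 and 71 for 0.

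In the liver of animal 75, SERPINA3 was 7.17 against 4.58 to 4.92 in the other livers, the cytokine-like matrix protein SPP1 was 1.33 against -1.01 to -0.36, CXCL13 was -2.39 against -4.08 to -3.51 and HNF4G was -2.58 against -5.23 to -4.33. Low in that liver were SERPINA5 at 4.43 against 5.61 to 6.14, LEAP2 at 1.19 against 2.16 to 2.60 and SYNM at -1.17 against -0.61 to -0.43. The mean level of the lipid synthesis list was 1.92 there against 2.49 to 2.78, and that of the peroxisome, retinol and one-carbon list 3.29 against 3.57 to 3.73.

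In the liver of animal 73, the macrophage genes MRC1 and VSIG4 were 4.95 against 3.91 to 4.18 and 3.65 against 2.59 to 2.95, and C8A was 7.43 against 6.96 to 7.09. Low there were FLNA at -0.32 against 0.88 to 1.38, CCR7 at -4.38 against -3.13 to -2.58, KCNH2 at -6.05 against -4.23 to -3.46 and INPP5J at -5.71 against -4.45 to -4.12, and the glycolysis isozyme list was 0.23 against 0.44 to 0.54. In animal 70, CYP2R1 was -1.39 against -3.10 to -2.59 and NR0B2 was -1.13 against 0.51 to 1.40. In animal 68, KIF1A was 1.25 against -4.71 to -3.99 and CSF1R was -2.41 against -1.59 to -1.30. No cause of these values was tested.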

How the results depend on the processing

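With the animal as a replicate block, the counts of genes above and below every other tissue stayed at 616 and 289, and the block changed the call of no named gene. Leaving out each animal in turn gave 606 to 619 genes above, 256 to 325 below, 4157 to 4224 called against Spleen, 3538 to 3676 against Jejunum and 4245 to 4534 against Peyer. After normexp background correction 100 genes were below, 99 of them among the 289, and 498 of the 616 stayed above. The authors' deposited values gave 270 above (231 of the 616) and 18 below (11 of the 289), with 1255 called against Jejunum and 2129 against Peyer. In them 3 smooth muscle genes, 1 T cell gene and 1 matrix gene were below. No B cell, cell division, chemokine, cytoskeleton or leukocyte signalling gene was below there. Requiring signal well above background on all 24 arrays, which tests fewer genes, gave 387 above and 138 below. A threshold of 1 gave 1131 above and 924 below, and a threshold of 3 gave 379 and 87. Calls higher in Liver than in Peyer were 63.2% of the calls after normexp, against 52.6% as reported, and those against Jejunum 58% in the authors' values, against 48.2%. Median centring moved the median of all genes against Peyer to -0.11, against 0.04 as reported, and kept 607 of the 616 genes and 273 of the 289. SLAMF1 turned to 0.03 after normexp, and in the authors' values SLAMF1 turned to 0.05, CCL24 to 0.15 and CLEC4G to -0.83. Between the 2 slide sets the authors' values differ with an SD of 0.114 over probes, against 1.5 in the scanner values. The cause of these turns was not tested. With each array below background set to its dimmest above-background signal, 604 genes were above and 217 below. Of 144 named genes called, 117 were lost in none of the alternatives that tested them, the authors' values left aside, and 85 of the 144 were not tested where signal on all 24 arrays was required. Quantile normalization left 10 complement genes above, the median over probes gave 6 sinusoidal genes above, and signal above background on all 24 arrays left 6 of the coagulation genes testable and above. Genes near background give only bounds, and signal over background limits them.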
